A study of Anas platyrhynchos with 6 samples.

Results

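SPARC, TIMP3, PLAU and ASPN are 4 genes of the extracellular matrix and its turnover, and each was followed here through its RefSeq transcript in duck ovary. They were chosen by transcript accession (XM_005010534.2 for SPARC, XM_005011515.2 for TIMP3, XM_005015701.2 for PLAU and XM_005025625.2 for ASPN). All 4 were found among the 41952 transcripts measured, and all 4 were among the 19790 that passed the filter on low values (at least 1 FPKM in at least 3 libraries) and were tested. The ovaries were those of Jinding ducks (Anas platyrhynchos), a breed kept for its eggs, all of a half-sib family, reared alike to 340 days. Ducks with a laying rate above 99% gave the 3 high-laying libraries, named high 1 to high 3, and ducks with a rate below 85% gave the 3 low-laying libraries, named low 1 to low 3. Whether each library stands for a duck of its own is not stated in the labels, and the tests therefore measure only the spread between these libraries, part of which may be technical. Levels were read as FPKM, a fragment count adjusted for the length of the transcript and the size of the library. The deposited values name no unit, so setting levels of different genes side by side rests on this reading.

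The matrix of the ovary is rebuilt continually, as follicles grow inside a stromal coat and their wall is opened at each ovulation. SPARC (osteonectin) is a secreted glycoprotein that binds collagen, and asporin, the product of ASPN, is a small leucine-rich proteoglycan that also binds collagen and can bind transforming growth factor beta. PLAU encodes urokinase, a serine protease that turns plasminogen into plasmin, which degrades matrix proteins and can activate metalloproteinases. TIMP3 encodes an inhibitor of metalloproteinases that is itself bound to the matrix. TIMP3 does not inhibit urokinase, so a ratio of PLAU to TIMP3 sets a protease of one class against the inhibitor of another.

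Read depth is unknown, because the deposited values are not counts. Summed FPKM was between 622708 and 639135 in high libraries and between 569606 and 605510 in low libraries, so the groups did not overlap in this sum. The first principal component of all tested transcripts, with 36.1% of the variance, placed low 1 at 54.9 and low 3 at -62.5, while the other 4 libraries lay between -3.51 and 6.60. The second component held 19.3% of the variance, and the groups did not overlap on it. It placed high libraries between -27.7 and -13.8 and low libraries between 8.25 and 41.6, with low 2 farthest from the high group. What this component reflects was not tested. On the first component low 1 and low 3 therefore stood apart at opposite ends. Differences of the 4 transcripts, their pairs and the PLAU to TIMP3 ratio are also given with libraries left out. Each r with another gene is given over all 6 libraries only, and its dependence on low 1 and low 3 was not tested. Markers of ovarian cells were detected: the oocyte genes ZP2, BTG4, ZAR1L, MOS and GDF9 were at 35.46 FPKM or more in every library, and FSHR, the granulosa receptor for follicle-stimulating hormone, was between 12.8 and 18.6 FPKM.

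No difference between high-laying and low-laying ovaries passed the test for any of the 4 transcripts. By FPKM mean, SPARC and TIMP3 were higher in high ovaries, and PLAU and ASPN were higher in low ovaries. Each of these gaps was smaller than the SD of the low group. The groups overlapped for all 4, so 0 of 4 were free of overlap, where 8.54% of all tested transcripts were. By limma-trend 0 of 4 were called at an adjusted p of 0.05, where 0.00505% of all tested transcripts were called (1 of 19790), and 0 of 4 had an unadjusted p under 0.05, where 3.51% of all did. The 95% intervals of all 4 differences lay between -1 and 1 on the log2(FPKM + 1) scale, which excludes a doubling or halving on that scale. This bound held under all 14 alternatives for TIMP3 and PLAU, but the interval reached past 1 in size under 6 of them for SPARC (up to 1.25) and 7 for ASPN (up to 1.16, and down to -1.15).

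**Figure D1:**
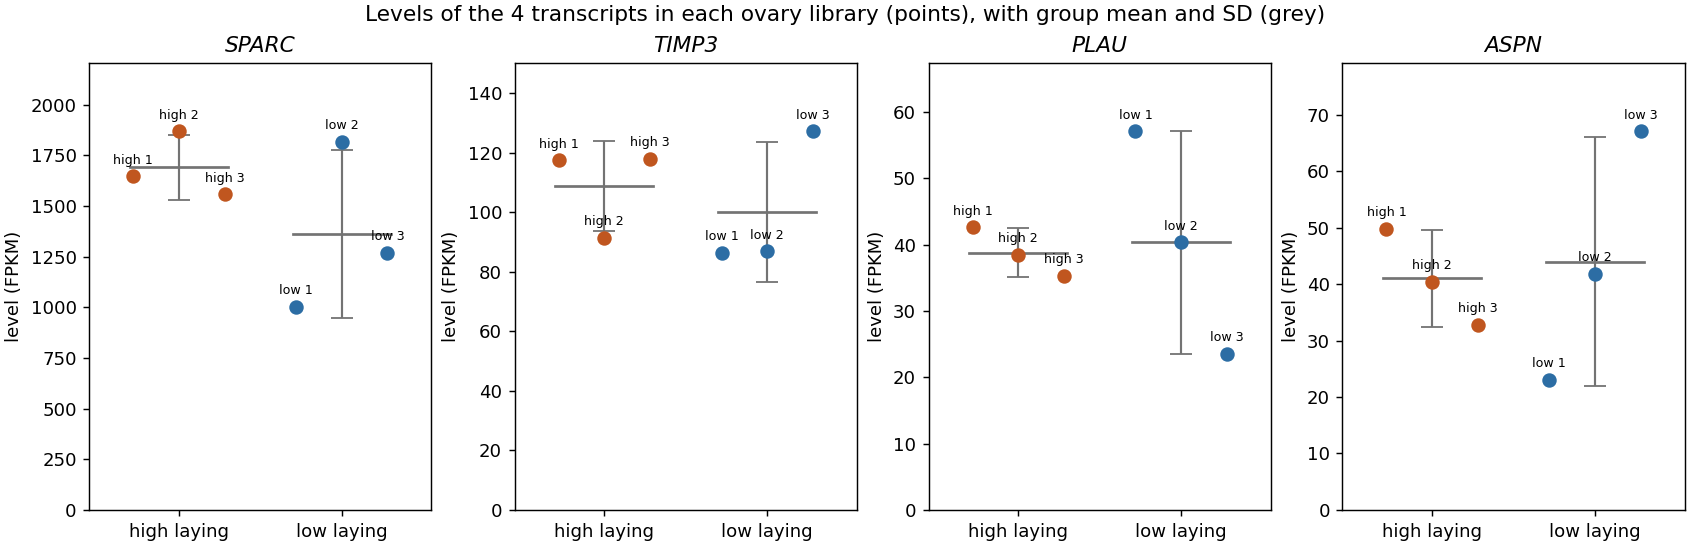
Level of each transcript in FPKM on the vertical axis (from 0), with high-laying libraries on the left and low-laying libraries on the right of each panel; points are libraries, and grey lines give the group mean and SD (n = 3). The groups overlap in all 4 panels, and low 1 and low 3 are the outermost libraries for PLAU and ASPN, in opposite order.

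SPARC was among the most abundant ovarian transcripts, between the 13th and the 52nd place of all 41952 by FPKM. It stood at 1647, 1869 and 1557 FPKM in high 1, 2 and 3, and at 1004, 1818 and 1270 FPKM in low 1, 2 and 3. Low 2 lay among the high libraries, and low 1 and low 3 lay below all of them. Means were 1691 ± 160 FPKM in high ovaries and 1364 ± 415 FPKM in low ovaries (SD, n = 3 each). The log2 difference, high minus low, was 0.35 (SE 0.272, 95% interval -0.28 to 0.98, limma adjusted p = 0.9998). As a share of summed FPKM, SPARC took 0.265%, 0.293% and 0.244% in high 1, 2 and 3, and 0.169%, 0.319% and 0.210% in low 1, 2 and 3. Since summed FPKM was higher in every high library, scaling all libraries to the same sum brought the SPARC difference to 0.25, quantile normalization brought it to 0.070, and without low 1 it was 0.15. Under limma's array weights, which here gave low 2 most of the weight of its group, it was -0.066. That setting called 11.6% of all tested transcripts and 0 of the 4.

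TIMP3 was far below SPARC in level, and it was the steadiest of the 4 across the libraries. It stood at 118, 91.4 and 118 FPKM in high 1, 2 and 3, and at 86.3, 87.0 and 127 FPKM in low 1, 2 and 3. The highest and the lowest library both belonged to the low group. Means were 109 ± 15.2 FPKM in high ovaries and 100.2 ± 23.5 FPKM in low ovaries. Their log2 difference was 0.13 (SE 0.202, 95% interval -0.34 to 0.61, limma adjusted p = 0.9998). Its SD of log2(FPKM + 1) over the 6 libraries was 0.251, larger than that of 34.6% of all tested transcripts. The difference was 0.040 without low 1 and 0.317 without low 3. In the gene table of a later duck assembly the span of TIMP3 overlaps that of SYN3. No source used here gives the strand setting of the counting, so reads of the 2 genes may not have been told apart. The matched SYN3 transcript was between 0.0444 and 0.761 FPKM, a level that rests on the same counting. The effect of the overlap was not tested.

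PLAU was almost level within the high group and wide within the low group. It stood at 42.6, 38.5 and 35.3 FPKM in high 1, 2 and 3, and at 57.1, 40.4 and 23.5 FPKM in low 1, 2 and 3. All 3 high libraries lay between low 1 and low 3, which differed 2.43-fold, while the high libraries differed at most 1.21-fold. Means were 38.8 ± 3.66 FPKM in high ovaries and 40.3 ± 16.8 FPKM in low ovaries. The log2 difference was 0.029 (SE 0.298, 95% interval -0.67 to 0.72, limma adjusted p = 0.9998), opposite in sign to the difference of the FPKM means. It was 0.318 without low 1, -0.305 without low 3 and -0.039 without high 1, so its sign depended on which libraries were included.

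ASPN varied most of the 4. It stood at 49.8, 40.4 and 32.7 FPKM in high 1, 2 and 3, and at 23.0, 41.9 and 67.1 FPKM in low 1, 2 and 3. Here too the high libraries lay between low 1 and low 3, but low 3 was the highest and low 1 the lowest, 2.92-fold apart. Means were 41.0 ± 8.55 FPKM in high ovaries and 44.0 ± 22.1 FPKM in low ovaries, with a log2 difference of 0.0066 (SE 0.363, 95% interval -0.84 to 0.85, limma adjusted p = 0.9998) that again had the opposite sign to the difference of means. It was -0.38 without low 1, 0.37 without low 3 and -0.14 without high 1. The SD of ASPN over the 6 libraries, 0.512 on the log2 scale, was larger than that of 80.2% of tested transcripts, against 67.0% for PLAU and 55.7% for SPARC. The span of ASPN overlaps that of CENPP, a centromere protein gene, in the same gene table, and the main CENPP transcript was between 8.83 and 22.2 FPKM.

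In FPKM, SPARC stood above TIMP3 in every library, and TIMP3 above PLAU and ASPN. The SPARC level was between 13.2 and 20.4 times the TIMP3 level in high libraries and between 9.98 and 20.9 times in low libraries. PLAU and ASPN had no fixed order. ASPN was above PLAU in high 1, high 2, low 2 and low 3, and below it in high 3 and low 1.

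The mean PLAU to TIMP3 ratio of high ovaries lay within the spread of low ovaries, and the highest and lowest ratios were both in low ovaries. The ratio of the 2 levels was 0.363, 0.421 and 0.300 in high 1, 2 and 3, and 0.662, 0.464 and 0.185 in low 1, 2 and 3. TIMP3 thus exceeded PLAU in all 6 libraries, by 2.37-fold to 3.34-fold in high ovaries and by 1.51-fold to 5.41-fold in low ovaries. Mean ratios were 0.361 ± 0.0609 in high ovaries and 0.437 ± 0.240 in low ovaries (SD, n = 3 each). The difference of mean log2 ratios, high minus low, was -0.10 (two-sided exact permutation p = 0.9, 20 labelings). With 3 libraries against 3 this test cannot give a p below 0.1. Without low 3 the difference was -0.63, with every remaining low library above every high library and an exact permutation p of 0.1, the smallest that 2 against 3 can give. Without low 1 it was 0.29, with an exact permutation p of 0.8. The span of the ratio came from both genes: low 1 had the highest PLAU and the lowest TIMP3 of the 6 libraries, and low 3 the lowest PLAU and the highest TIMP3.

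**Figure D2:**
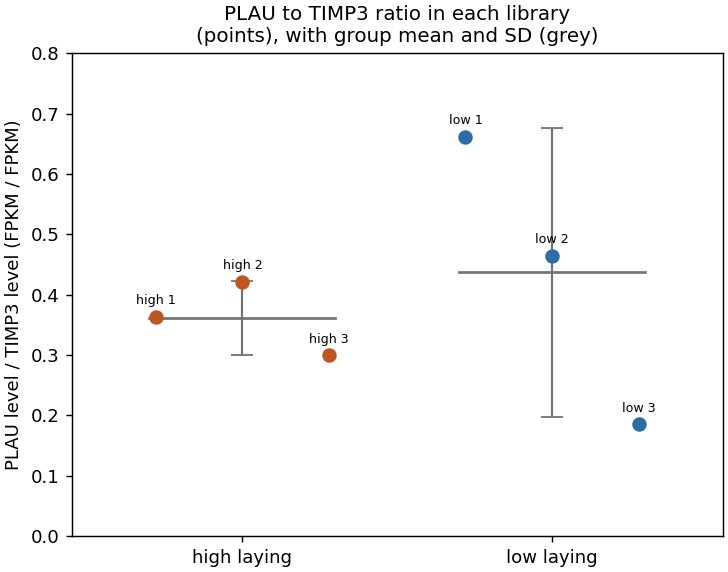
PLAU level divided by TIMP3 level (FPKM over FPKM, vertical axis from 0) in high-laying libraries on the left and low-laying libraries on the right; points are libraries, and grey lines give mean and SD (n = 3). The high libraries lie between 0.300 and 0.421, and the low libraries run between 0.185 and 0.662.

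All 4 transcripts had a larger SD in low than in high ovaries, as did most transcripts. For PLAU the SD of log2(FPKM + 1) was 0.132 in high and 0.628 in low ovaries, a low to high ratio of 4.74. For SPARC the SDs were 0.135 in high and 0.431 in low ovaries, a ratio of 3.20. For ASPN they were 0.295 in high and 0.753 in low ovaries, a ratio of 2.55, and for TIMP3 0.208 in high and 0.317 in low ovaries, a ratio of 1.52. Two-sided permutation tests relabelled the deviations from the group means, so their p-values are approximate. These permutation tests gave p = 0.3 for SPARC, PLAU and ASPN and p = 0.5 for TIMP3 (0.4 and 0.5 after Benjamini-Hochberg adjustment over the 4). Over all tested transcripts the median ratio was 1.48, and 67.7% had the larger SD in low ovaries. The ratio of PLAU was larger than that of 89.9% of them, and that of TIMP3 larger than that of 51.3%.

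By Pearson r across the 6 libraries, the strongest relations among the 4 ran between PLAU and the pair TIMP3 and ASPN. By Spearman rho, TIMP3 and ASPN were more closely related than PLAU and ASPN. None of the 6 pairs passed the test by either measure. PLAU and ASPN had Pearson r = -0.82 (exact permutation p = 0.0667, adjusted 0.2 over the 6 pairs) and Spearman rho = -0.43 (exact permutation p = 0.419, adjusted 0.839). TIMP3 and PLAU had r = -0.71 (exact permutation p = 0.0542, adjusted 0.2) and rho = -0.83 (exact permutation p = 0.0583, adjusted 0.35). TIMP3 and ASPN had r = 0.63 (exact permutation p = 0.219, adjusted 0.439) and rho = 0.60 (exact permutation p = 0.242, adjusted 0.725).

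SPARC followed none of the other 3 closely. Its r was 0.36 with ASPN (exact permutation p = 0.468, adjusted 0.702), -0.18 with PLAU (exact permutation p = 0.719, adjusted 0.863) and -0.03 with TIMP3 (exact permutation p = 0.968, adjusted 0.968). The matching rho values were 0.20, -0.086 and -0.086, with exact permutation p of 0.714, 0.919 and 0.919 and an adjusted p of 0.919 each.

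The relations with PLAU and ASPN rested on low 1 and low 3, which were the 2 libraries farthest from the median for SPARC, TIMP3 and PLAU. Without both, the r of PLAU and ASPN turned to 0.985 over the other 4 libraries, in which both transcripts had the same order: high 1, low 2, high 2, high 3. TIMP3 and PLAU then had r = -0.16, and TIMP3 and ASPN had r = -0.078. With only low 1 left out, the r of PLAU and ASPN was -0.64, and with only low 3 left out it was -0.61. SPARC and PLAU had r = 0.89 without low 1 and -0.85 without low 3. SPARC and ASPN had r = -0.65 without low 1 and 0.87 without low 3. SPARC and TIMP3 had r = -0.87 without low 1, and -0.93 without both. The r values with libraries left out rest on very few points and were not tested.

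**Figure D3:**
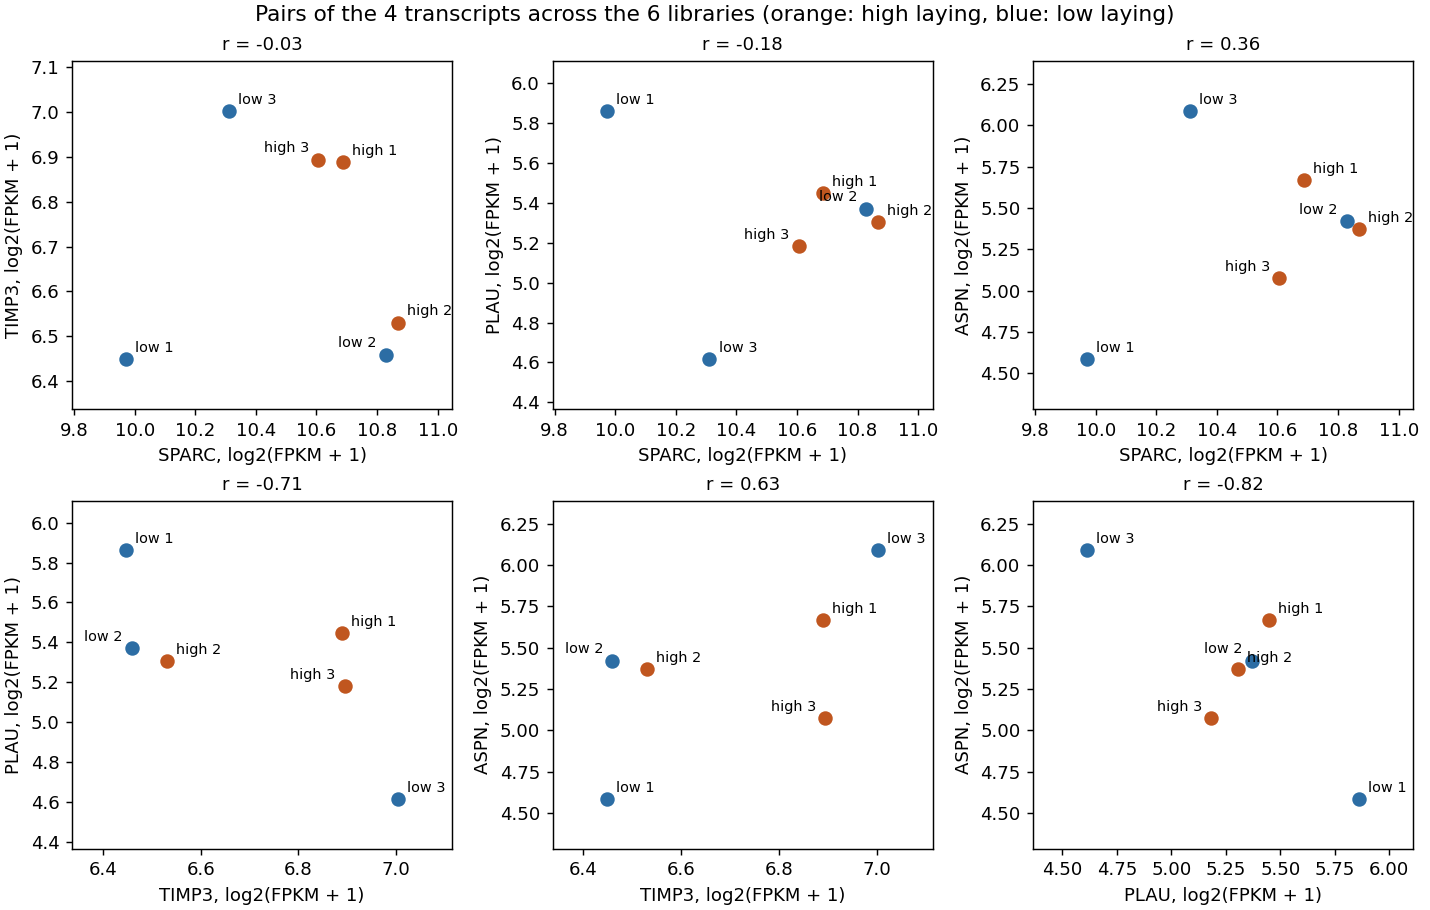
Each panel plots 2 of the 4 transcripts against each other as log2(FPKM + 1), with 1 point per library (orange for high-laying, blue for low-laying) and Pearson r over the 6 libraries above it. In the panel of PLAU and ASPN, low 1 and low 3 lie at opposite corners and the other 4 libraries rise together between them.

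The libraries that set the PLAU and ASPN values also differed in markers of the cells that make up an ovary. In a bulk sample, fewer cells of a type and less RNA per cell cannot be told apart. Of 7 oocyte markers 5 were matched and tested, none was at 0 in any library, and their summed level was 703 to 976 FPKM in high libraries and 415 to 1138 FPKM in low libraries. From highest to lowest summed oocyte level the libraries ran low 1, high 1, low 2, high 2, high 3, low 3, which is also their order for PLAU. By the mean log2 deviation of the 5 markers, high 2 (0.13) stood above low 2 (0.11) and the order of these libraries differed from that of PLAU. Over the 6 libraries PLAU had r = 0.967 with ZP2, an egg-coat gene, 0.956 with BTG4, which acts in the clearance of maternal RNA, 0.953 with ZAR1L, 0.879 with the meiotic kinase gene MOS and 0.739 with the oocyte growth factor gene GDF9. With the same 5 genes ASPN had r between -0.85 and -0.51, TIMP3 between -0.81 and -0.60, and SPARC between -0.20 and 0.074. A high r with PLAU was not limited to oocyte genes. CYP19A1, the only 1 of 4 theca markers matched, had r = 0.791 with PLAU, and the granulosa genes FST and FSHR had 0.294 and -0.135. Among 941 other named transcripts with a mean of at least 10 FPKM, 84 (8.93%) had r above 0.9 with PLAU. These values share the same 6 libraries and are a description, and the part of oocyte content in the PLAU values was not tested.

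Of the tested marker genes, ACTA2 and VWF had the highest r with ASPN. ACTA2, smooth muscle actin and the only 1 of 6 markers of smooth muscle and theca externa that was matched, was at 1794, 1794 and 1427 FPKM in high libraries and at 1154, 2147 and 2510 FPKM in low libraries, with r = 0.931 to ASPN. VWF, the endothelial von Willebrand factor gene, had r = 0.928 to ASPN and lay between 53.0 and 62.8 FPKM in high libraries and between 40.7 and 66.7 FPKM in low libraries. The other 4 tested endothelial markers had r between -0.40 and 0.47 with ASPN. The 4 tested of 7 stromal fibroblast markers (DCN, LUM, PDGFRA and DPT) summed to 749 to 1020 FPKM in high libraries and 497 to 783 FPKM in low libraries, with none at 0, and had r between 0.61 and 0.85 with ASPN. Low 1 had the lowest sum of the stromal, endothelial and leukocyte lists and the lowest ACTA2. By mean log2 deviation, however, the endothelial list was lowest in high 2 (-0.13), with low 1 at -0.087. The 4 tested of 6 leukocyte markers summed to 352 to 1451 FPKM in high libraries and 143 to 377 FPKM in low libraries. Most of this sum was JCHAIN, at 1347.5 FPKM in high 1 and between 95.5 and 388 FPKM in the other libraries. For each of these 4 leukocyte markers the groups overlapped, where 8.54% of all tested transcripts had groups that did not. The only tested marker gene without overlap was the endothelial gene PECAM1, through its most abundant transcript. It was between 45.5 and 66.8 FPKM in high libraries and between 32.8 and 42.5 FPKM in low libraries (limma adjusted p = 0.9998). SPARC and TIMP3 were also lowest in low 1. The part of these cell types in the values was not tested.

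**Figure D4:**
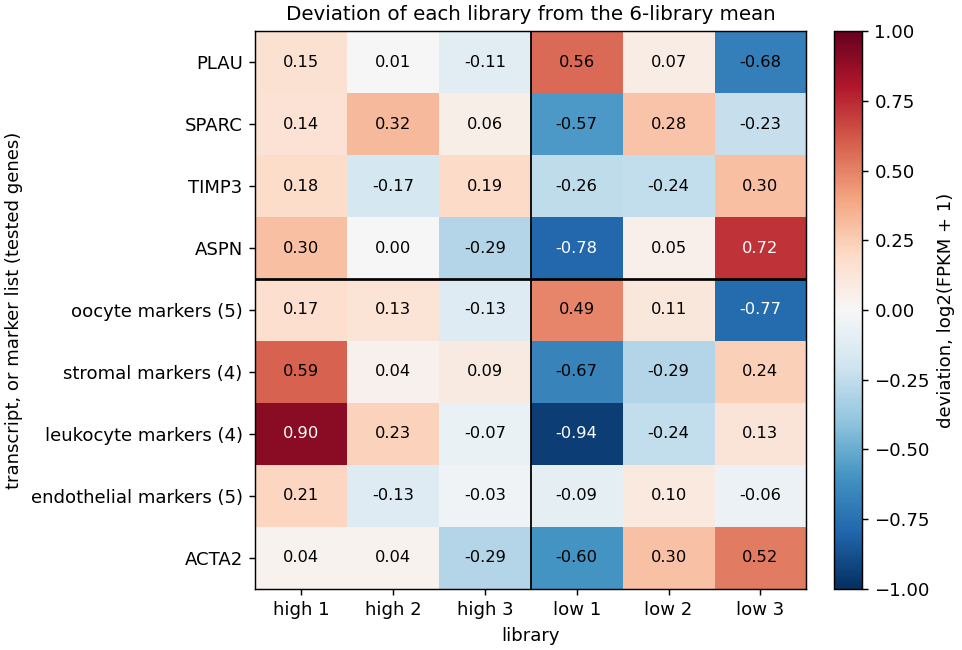
Deviation of each library (columns, high-laying left) from the 6-library mean in log2(FPKM + 1), for the 4 transcripts (above the line) and for the mean of each marker list with its number of tested genes (below). PLAU and the oocyte markers are both highest in low 1 (0.56 and 0.49) and lowest in low 3 (-0.68 and -0.77), and ASPN and ACTA2 are both lowest in low 1 and highest in low 3.

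Among 941 other named transcripts with a mean of at least 10 FPKM, those most like each of the 4 over the 6 libraries were ranked by Pearson r. Of these, r was above 0.9 for 5 transcripts with SPARC, 6 with TIMP3, 84 with PLAU and 24 with ASPN, and below -0.9 for 0 with SPARC, 9 with TIMP3, 19 with PLAU and 80 with ASPN. Most like SPARC were HPGD, which degrades prostaglandins (r = 0.985), LIMD2 (0.949), the retinol-binding protein gene RBP5 (0.939), CTSK, a collagen-degrading cathepsin (0.927), and GATC (0.901). HPGD stood at 11.2, 12.4 and 9.83 FPKM in high 1, 2 and 3, and at 7.46, 11.8 and 8.94 FPKM in low 1, 2 and 3, the same order of libraries as SPARC. Least like SPARC were MICALL2 (-0.859) and AURKAIP1 (-0.817). Each r of this ranking belongs to a single transcript. AURKAIP1, ADCYAP1R1 and MYOT each had 3 tested transcripts, and ARFIP1 and C1QB each had 2.

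Most like TIMP3 were UBL3 (r = 0.982), PHYHD1 (0.978), ARFIP1 (0.969), the receptor gene ADCYAP1R1 (0.944) and MGP, matrix Gla protein, an inhibitor of calcification (0.913). Least like it were the receptor gene GPR27 (-0.978) and MCM10, a gene of DNA replication (-0.958). MCM10 stood at 18.0, 28.3 and 21.2 FPKM in high 1, 2 and 3, and at 34.9, 37.7 and 18.9 FPKM in low 1, 2 and 3, so the libraries low in TIMP3 were those high in MCM10.

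Most like PLAU were IRAG2 (r = 0.998), RUFY1 (0.991), the arginine methyltransferase gene PRMT9 (0.990), FAM120B (0.989) and MYOT (0.983). Least like it were MEOX2, a homeobox gene of mesoderm and vessels (-0.992), and DENND2A (-0.976). MEOX2 stood at 14.6, 16.1 and 20.7 FPKM in high 1, 2 and 3, and at 8.51, 17.2 and 35.6 FPKM in low 1, 2 and 3. IRAG2 ran the other way, at 27.6, 25.8 and 21.6 FPKM in high 1, 2 and 3, and at 40.1, 26.3 and 13.3 FPKM in low 1, 2 and 3.

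Most like ASPN were MAU2 (r = 0.972), GLIPR2 (0.971), C1QB, a complement subunit made by macrophages (0.969), the angiopoietin-like gene ANGPTL2 (0.967) and the homeobox gene HOXB4 (0.960). Least like it were EXOSC2, a subunit of the RNA exosome (-0.991), and ZDHHC12 (-0.987). HOXB4 stood at 28.9, 27.3 and 25.7 FPKM in high 1, 2 and 3, and at 16.1, 28.5 and 49.7 FPKM in low 1, 2 and 3.

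Other matrix and protease genes, taken from 10 lists of 275 genes, likewise showed no called difference. Only 42 of the 275 could be matched to a transcript by name and 33 were tested. Of these 33, 0 were called, where 0.00505% of all tested transcripts were (1 of 19790). A count of 0 therefore does not set these genes, or the single lists below, apart from other transcripts. The log2 difference of the 33 was above 0 for 19 and below 0 for 14, with a median of 0.023. Over all tested transcripts 49.5% lay above 0, with a median of -0.003. The smallest limma adjusted p among the 33 was 0.9998.

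Of the other small leucine-rich proteoglycans, relatives of ASPN, the 3 tested ones (DCN, OGN and LUM) were more abundant than it in every library. DCN, decorin, was at 658 ± 91.0 FPKM in high ovaries and 527 ± 108 FPKM in low ovaries, and OGN, osteoglycin, at 405 ± 189 FPKM in high ovaries and 353 ± 100.4 FPKM in low ovaries. LUM, lumican, was at 72.4 ± 39.2 FPKM in high ovaries and 47.5 ± 20.2 FPKM in low ovaries. ASPN made up 3.72%, 3.07% and 3.76% of the summed level of these 4 genes in high 1, 2 and 3, and 3.24%, 4.06% and 5.72% in low 1, 2 and 3. Decorin exceeded ASPN 15.1-fold to 17.5-fold in high libraries, and 17.5-fold, 14.3-fold and 8.64-fold in low 1, 2 and 3. Low 3 thus had the most ASPN relative to the sum of the 4 genes and to decorin, but not relative to OGN or LUM. The ratio of OGN to ASPN was lowest in high 3 (6.36, against 6.79 in low 3). That of LUM to ASPN was lowest in low 2 (1.025, against 1.038 in low 3). Of the 6 tested proteoglycan genes, 3 lay above 0 and 3 below in log2 difference (median 0.053).

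The 2 tested collagen genes, COL6A2 and COL6A1, encode chains of beaded-filament collagen and had nearly equal means. COL6A2 was at 445 ± 113 FPKM in high ovaries and 468 ± 170 FPKM in low ovaries, a log2 difference of -0.03. COL6A1 was at 285 ± 63.3 FPKM in high ovaries and 311 ± 134 FPKM in low ovaries, a log2 difference of -0.05. Their r with SPARC was 0.691 and 0.755, and their r with ASPN was 0.762 and 0.672. FBLN5, a protein of elastic fibers and the only tested gene of basement membrane and adhesion glycoproteins, had a log2 difference of -0.24.

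Of 5 tested matricellular genes, the group to which SPARC belongs, 4 lay above 0 and 1 below in log2 difference (median 0.33), and 0 were called. MGP was at 318 ± 26.4 FPKM in high ovaries and 271 ± 135 FPKM in low ovaries. The most abundant POSTN transcript, of the collagen-binding protein periostin, was at 261 ± 29.9 FPKM in high ovaries and 227 ± 133 FPKM in low ovaries, and it was 1 of 8 tested POSTN transcripts. SPP1, osteopontin, differed most between single libraries, at 29.2, 258 and 167 FPKM in high 1, 2 and 3, and 140, 9.32 and 114 FPKM in low 1, 2 and 3.

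Among proteases and their inhibitors the levels were spread over a wide range. The 4 tested metalloproteinase genes were low, with a median log2 difference of -0.087, 2 above 0 and 2 below. MMP23B was at 6.66 ± 0.384 FPKM in high ovaries and 9.63 ± 3.77 FPKM in low ovaries, and ADAMTS10, linked to the microfibrils of the matrix, was at 3.97 ± 0.218 FPKM in high ovaries and 6.02 ± 1.81 FPKM in low ovaries. MMP7 reached 13.01 FPKM in high 1 and was between 1.23 and 3.07 FPKM in the other 5 libraries. These 3 were below TIMP3 in every library. Only 4 of the 50 listed metalloproteinase genes and 0 of the 7 other listed inhibitor genes were matched by name, so this holds for named transcripts alone.

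Of the 8 tested genes of the plasminogen system and serine protease inhibitors, 6 lay above 0 and 2 below in log2 difference (median 0.12), and 0 were called. HTRA1, a secreted serine protease, was at 280 ± 17.8 FPKM in high ovaries and 231 ± 61.5 FPKM in low ovaries, well above PLAU. SERPINF1, which encodes pigment epithelium-derived factor, was at 219.7 ± 65.0 FPKM in high ovaries and 125 ± 53.6 FPKM in low ovaries. Its log2 difference was 0.84 (limma unadjusted p = 0.0403, adjusted p = 0.9998). SERPIND1, heparin cofactor II, had r = -0.923 with PLAU and r = 0.896 with ASPN over the 6 libraries. It stood at 33.6, 34.0 and 30.5 FPKM in high 1, 2 and 3, and 23.4, 37.9 and 75.1 FPKM in low 1, 2 and 3. Low 1 and low 3 were thus its lowest and highest libraries. Apart from them, SERPIND1, PLAU and ASPN were all lowest in high 3. The r of SERPIND1 without low 1 and low 3 was not computed. The only 1 of the 33 genes whose groups did not overlap was F10, coagulation factor X, which was singled out after its values were seen; 8.54% of all tested transcripts had groups that did not overlap. SERPINF1 and F10 were the 2 of 33 with an unadjusted limma p under 0.05, beside 3.51% of all tested transcripts, so neither count sets these genes apart. It stood at 31.3, 24.3 and 24.1 FPKM in high libraries and 11.2, 19.2 and 15.2 FPKM in low libraries, and the log2 difference was 0.79 (limma adjusted p = 0.9998).

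The 3 tested genes of cathepsins and cystatins all lay above 0 in log2 difference (median 0.53), and 0 were called. CTSK was at 84.2 ± 9.23 FPKM in high ovaries and 60.7 ± 21.0 FPKM in low ovaries, CTSS, a cathepsin of macrophages and antigen-presenting cells, at 73.1 ± 35.6 FPKM in high ovaries and 48.8 ± 22.1 FPKM in low ovaries, and CST7 at 1.99 ± 0.710 FPKM in high ovaries and 1.27 ± 0.918 FPKM in low ovaries. Of 4 tested genes of collagen processing, 1 was above 0 and 3 below, with a median of -0.086. The collagen chaperone gene SERPINH1 was at 176 ± 37.6 FPKM in high ovaries and 182 ± 44.9 FPKM in low ovaries through its main transcript, and the hydroxylase genes PLOD1 and P3H2 had log2 differences of -0.17 and -0.13.

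**Figure D5:**
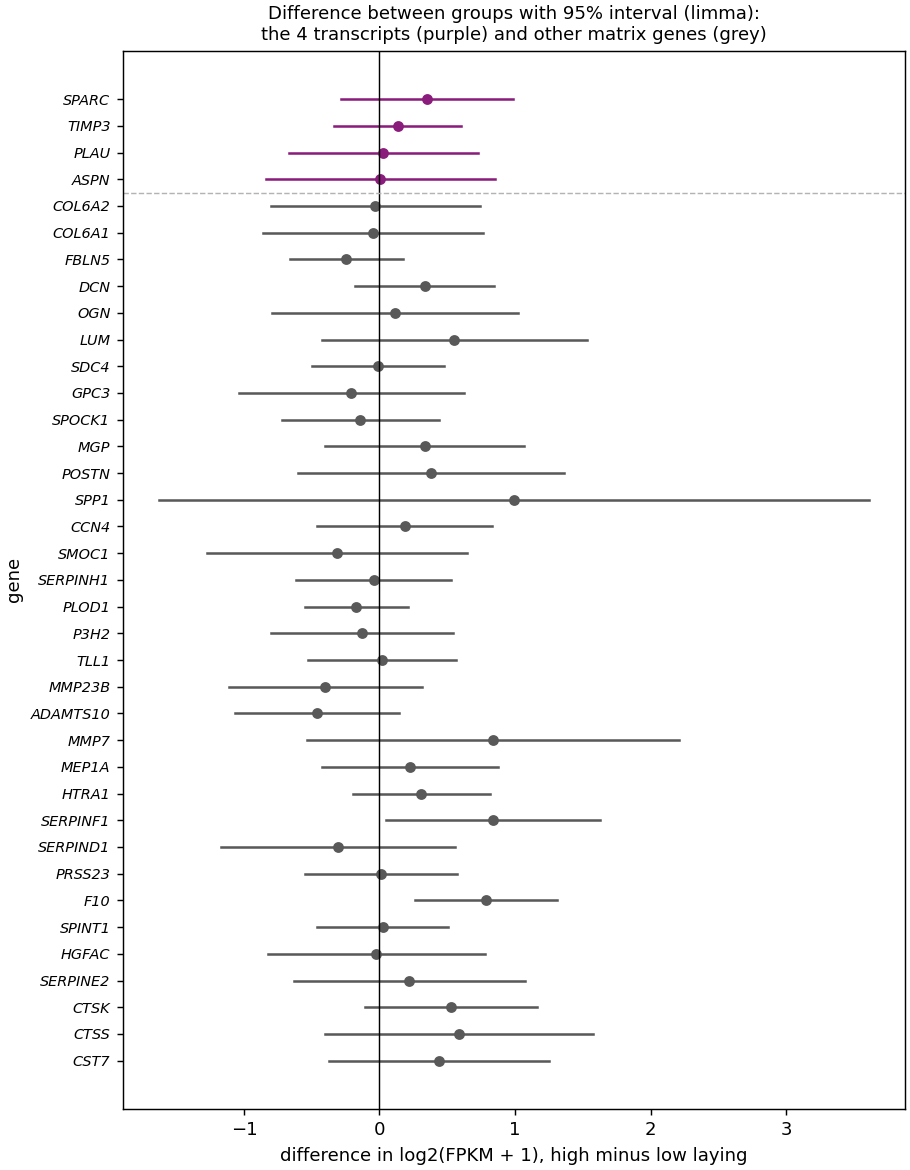
Difference in log2(FPKM + 1), high minus low, on the horizontal axis for the 4 transcripts (purple) and the 33 other matrix and protease genes (grey), with points for the limma estimate and lines for its unadjusted 95% interval. The 4 intervals in purple all cross 0 and stay between -1 and 1, and the intervals of SERPINF1 and F10 are the only ones that do not cross 0.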

How the data were processed

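RNA of whole ovary pieces was sequenced from stranded, polyadenylated-RNA libraries, per the labels' protocols. Per the submitters' processing notes, Bowtie2 2.0.6 and TopHat2 2.0.9 were used; the abundance program, genome build, annotation and strand setting are not stated in them. The deposited tables name no unit. Their values were fractional with sums that differed between libraries, so they were read as FPKM, as deposited by the authors. Among 6632 low transcripts no step of whole reads was found (the fullest 0.02-wide bin of log2 ratios held 0.814% to 1.10%), so no count test was run.

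Transcripts were named through RefSeq's genes of the IASCAAS Pekin duck assembly, matched by accession without version; 2188 of 19790 tested transcripts (11.1%) carried a symbol. Each of the 4 genes had 1 matched transcript. Values were taken as log2(FPKM + 1), which understates changes of low transcripts, and groups were compared by limma-trend (limma 3.58.1, R 4.3.3) over all tested transcripts, two-sided, with Benjamini-Hochberg adjustment. The test was checked on simulated data with a common spread for all transcripts and changes far larger than the differences of the 4 genes. That check does not cover small changes or libraries of unequal spread. Single values used permutation tests over all labelings or pairings (Python 3.11.15, numpy 2.4.6), which were exact except for the test of spread.

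The members and lists were chosen with earlier results of these data known. Named list genes are the up to 3 with the highest mean FPKM per list, each through its most abundant transcript; for likeness, the 5 highest and 2 lowest r. Alternatives were other pseudocounts, filters and scalings, array weights and leaving out each library.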

Additional observations from a re-analysis of the deposited data

How the results depend on the processing

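Of the values recomputed under an alternative, 131 kept their direction and side of the threshold, 25 turned in sign and 7 counts moved; the cause was not tested. No alternative brought any of the 4 transcripts past the threshold. TIMP3 kept its sign in every alternative, between 0.032 and 0.317. With array weights SPARC was at -0.066, PLAU at -0.055 and ASPN at -0.045; 1 library, low 2, had a weight of 17.3, and the other 5 had weights between 0.251 and 1.25. With equal library sums, which moved the median of all tested transcripts from -0.003 to -0.095, PLAU was at -0.071 and ASPN at -0.094, and with quantile normalization ASPN was at -0.030. Leaving out each library in turn, the log2 difference ran from 0.15 to 0.58 for SPARC, from 0.040 to 0.317 for TIMP3, from -0.30 to 0.32 for PLAU and from -0.38 to 0.37 for ASPN, and that of the PLAU to TIMP3 ratio from -0.63 to 0.29, with sign changes without high 3, low 1 or low 2. The count of called transcripts was 1, and it was 0 at a pseudocount of 0.01 or with no filter on low values, 2292 (1115 higher, 1177 lower, 11.6% of those tested) with array weights, and 1 to 3 with a library left out.

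Co-variation depended on scaling and on libraries. SPARC and TIMP3 had r = 0.097 after median centring. After quantile normalization SPARC and PLAU had r = 0.39 and SPARC and ASPN had r = -0.21. Without the 2 libraries farthest from the median r was 0.34 for SPARC and PLAU, -0.078 for TIMP3 and ASPN, and 0.985 for PLAU and ASPN. Leaving out each library, chosen after seeing the data, gave r from -0.87 to 0.22 (SPARC and TIMP3), -0.85 to 0.89 (SPARC and PLAU), -0.65 to 0.87 (SPARC and ASPN), -0.84 to -0.50 (TIMP3 and PLAU), 0.38 to 0.82 (TIMP3 and ASPN) and -0.92 to -0.61 (PLAU and ASPN). The log2 ratio of low to high SD then ran from 0.83 to 2.91 for SPARC, 1.39 to 2.86 for PLAU, 0.67 to 1.85 for ASPN and -4.75 to 6.46 for TIMP3, whose ratio turned only without low 3, where low 1 and low 2 were nearly equal.

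Summing a gene's transcripts gave nothing to compare, since each gene had 1 matched transcript. No paired analysis was possible because the replicate numbers only follow record order and nothing in the labels ties a high library to a low one. Depth is unknown, so precision rests on 3 libraries per group, with a median SE of 0.261.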

Other observations

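In the gene table of the later duck assembly, ASPN lies in a row of genes in the order ECM2, ASPN, OMD, OGN. Of these, OMD and OGN are small leucine-rich proteoglycan genes like ASPN. These neighbours differed widely in level. OGN stood at 421, 585 and 208 FPKM in high 1, 2 and 3, and at 254, 349 and 455 FPKM in low 1, 2 and 3, with r = 0.659 to ASPN over the 6 libraries. OMD, osteomodulin, was between 0.170 and 0.379 FPKM in high libraries and between 0.243 and 0.502 FPKM in low libraries, under the filter in all of them. ECM2 was not analysed here.

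The span of CENPP overlaps that of ASPN, and the main CENPP transcript was highest where ASPN was lowest. This transcript stood at 8.83, 11.98 and 10.8 FPKM in high 1, 2 and 3, and at 22.2, 15.2 and 10.04 FPKM in low 1, 2 and 3, with r = -0.768 to ASPN. The other tested CENPP transcript did not share this relation, with r = 0.012 to ASPN. It was at 0.829 FPKM in low 1 and highest in low 2, at 2.62 FPKM. SERPINE2, protease nexin, is an inhibitor of urokinase and other serine proteases. Over the 6 libraries it had r = 0.792 with PLAU and r = -0.932 with ASPN. It stood at 2.58, 3.97 and 4.23 FPKM in high 1, 2 and 3, and at 4.84, 3.21 and 1.39 FPKM in low 1, 2 and 3. Apart from low 1 and low 3, its order from the highest was high 3, high 2, low 2, high 1. That is the reverse of the order of both PLAU and ASPN, so its positive r with PLAU rested on low 1 and low 3. These genes were singled out after their values were seen, and the relations are given without a test.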
